A study of Mus musculus with 6 samples.

Results

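The genes described here encode the machinery by which neurons store transmitter in vesicles and release it: 33 genes, chosen by name, represented by 90 of the 45037 probe sets that were tested. A probe set is the group of short probes that reports one transcript region on the array. All probe sets that the platform annotation maps to exactly 1 of these symbols were taken. That rule uses no measured value, but the genes were chosen with earlier results of these data known, so shares over them are a description. Every gene had at least 1 probe set, and 28 had several. One further probe set, annotated to Vamp1 together with another gene, was left out.

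RNA came from ocular lenses of mouse embryos at E19.5, on a mixed C57BL/6 & FVB/N background, with 3 arrays in each group. The Notch2 mutants carried a lens-specific conditional ablation of that receptor gene, and the wild types were littermates in which it was intact. The 2 lenses of an embryo were dissected free of neighbouring tissue, per the labels, and pooled for 1 array. The Cre driver and the deleted exons are not given in the sources used here. The 2 Notch2 probe sets differed between mutant and wild type by 0.49 (SE 0.45, limma adjusted p = 0.752) and -0.42 (SE 0.21, adjusted p = 0.514), so neither checked the genotypes. Values are log2, centred for each probe set on the median of its 6 arrays, so an array reads above or below the others and no level of expression is known. For the same reason it could not be checked from levels that the tissue was lens. Array values are given in the order of replicates 1 to 3. Where the groups do not overlap, centring makes the wild type and the mutant array nearest each other mirror images around 0. Differences are log2, mutant minus wild type, with limma's standard error (SE) and a Benjamini-Hochberg adjusted p over all 45037 probe sets, n = 3 per group, and a probe set "passed" below 0.05.

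In a synapse, vesicles are filled by transporters, held in reserve by synapsins, steered to the active zone by Rab3 and its partners, and fused with the membrane when SNARE proteins zip together. Synaptotagmin senses calcium and triggers that last step, complexin clamps and assists it, and dynamin with its helpers retrieves the membrane afterwards. Neurons and neuroendocrine cells hold most of this machinery, including the retinal neurons that lie behind the lens. Several of its parts have also been described in lens cells, which have no synapses.

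Release genes did not move as a block in mutant lenses. Syt1, Rab3c, Nlgn1 and Sh3gl2 each had 1 probe set that rose, Syn2 had 1 that fell, and the other 28 genes had none that passed. These 5 probe sets are 5.56% of the 90, against 0.469% of all probe sets tested. The median difference over the members was 0.11, against -0.02 over all probe sets. At an unadjusted p under 0.05 there were 27 members (30%), where all probe sets gave 11.6%. Differences of at least 0.5 in either direction were seen in 28 members (31.1%, against 9.05%), of which 20 were positive and 8 negative. The groups did not overlap in 24 members, or 26.7% against 17.8% of all probe sets. All mutants were higher in 15 of them (16.7% of the members, against 8.73%) and lower in 9 (10%, against 9.1%). With 1 array left out in turn, the difference ranged from 1.46 to 1.93 for Syt1, from 1.18 to 1.48 for Nlgn1, from 1.01 to 1.21 for Rab3c, from 0.85 to 0.99 for Sh3gl2 and from -1.08 to -0.90 for Syn2. Without wild type 1, wild type 3, mutant 1, mutant 2 or mutant 3 none of the 90 passed by limma (18 to 25 had an unadjusted p under 0.05). Calls over the whole array dropped too: 8, 49, 12, 7 and 91 probe sets passed, in that order, against 211 with all arrays. Without wild type 2 the members that passed were Syt1, Snap25 and Rims2, among 155 of all probe sets.

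**Figure D1:**
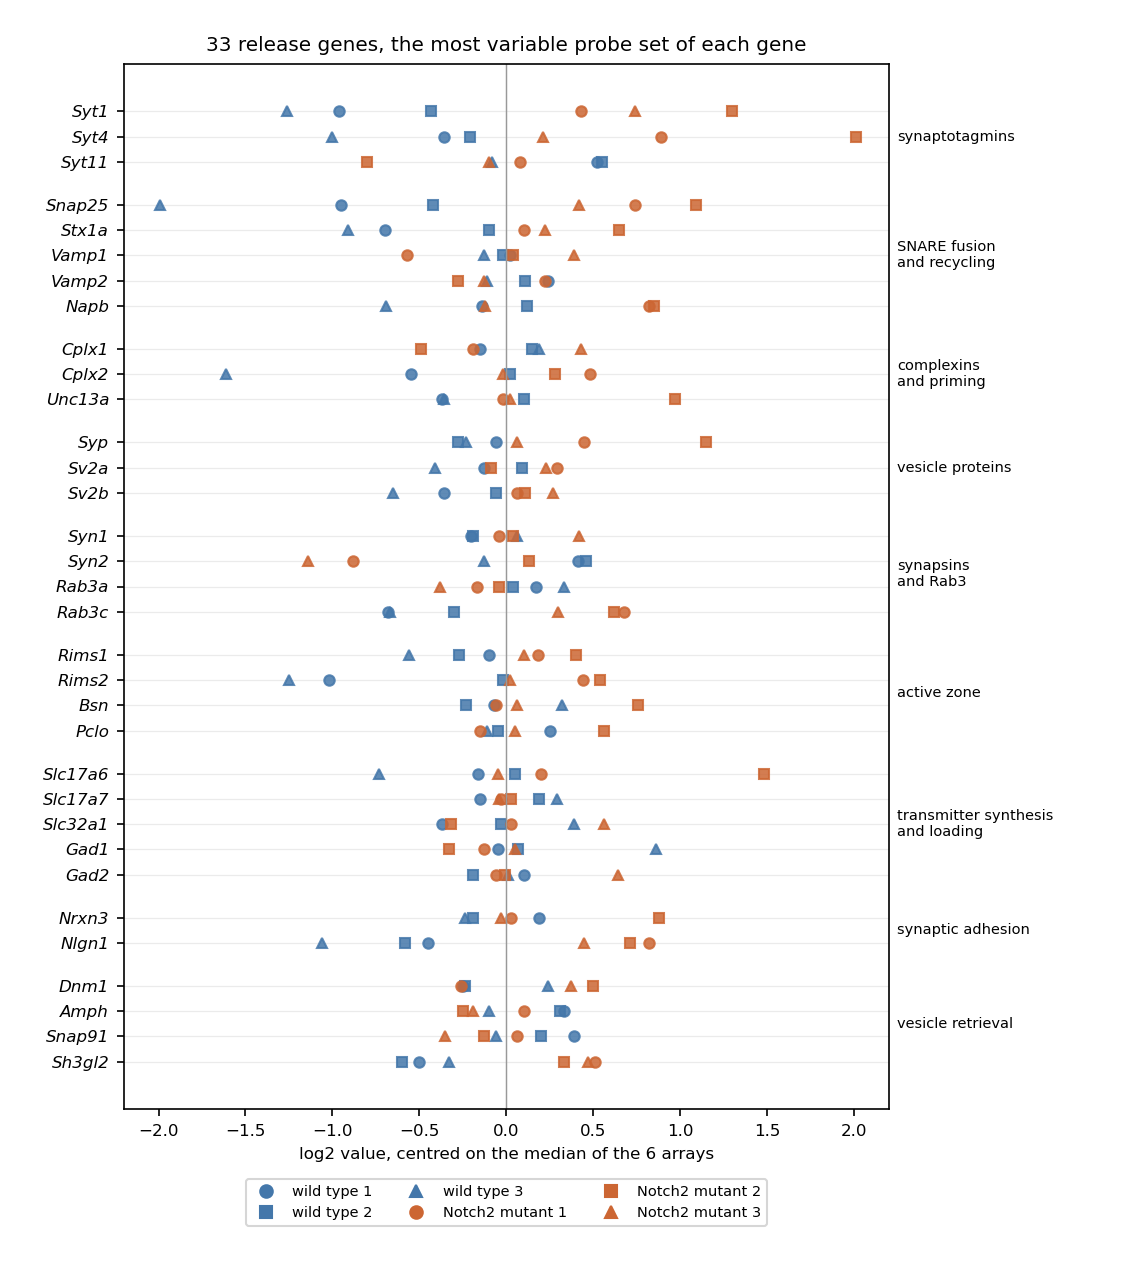
Centred log2 value on each of the 6 arrays (x axis) for the 33 genes (y axis, grouped by role), using each gene's most variable probe set, wild type in blue and Notch2 mutant in orange, one symbol per replicate. Syt1, Syt4, Snap25, Rab3c, Nlgn1 and Sh3gl2 are among those that separate with mutants on the right, whereas the genes of transmitter synthesis and loading overlap throughout.

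Synaptotagmins differed from one another. Syt1, the fast calcium sensor of release, read -0.96, -0.43 and -1.26 on the wild type arrays and 0.43, 1.30 and 0.74 on the mutant ones by probe set 1433884_at. All mutants lay above all wild types, with wild type 3 lowest and mutant 2 highest, and the difference was 1.70 (3.26-fold, SE 0.27, adjusted p = 0.0422). The other Syt1 probe sets did not follow: 1438282_at read 0.79 (SE 0.34, adjusted p = 0.412), 1421990_at 0.16 (SE 0.17) and 1431191_a_at -0.29 (SE 0.25). Syt4, a synaptotagmin found also on dense-core granules, had both of its probe sets above 0. The larger read -0.36, -0.21 and -1.0 against 0.89, 2.01 and 0.21, a difference of 1.56 (SE 0.41, adjusted p = 0.150) that did not pass, with mutant 2 far above the other mutants. The smaller read 0.69 (SE 0.23, adjusted p = 0.277), and in both of them the groups did not overlap. Syt11, a relative of Syt4 that does not trigger fusion as Syt1 does, went the other way with all 5 of its probe sets, from -0.68 to -0.37. The one with the smallest p, 1455176_a_at, read 0.51, 0.11 and 0.13 in wild types and -0.42, -0.44 and -0.11 in mutants, and its difference of -0.57 (SE 0.18, adjusted p = 0.235) did not pass. In 3 of the 5 Syt11 probe sets every mutant lay below every wild type. The opposite signs of Syt1 and Syt11 were not tested against each other.

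The genes of the SNARE complex held the largest member difference, which did not pass. Snap25, which supplies a pair of helices to the fusing bundle, read -0.95, -0.42 and -1.99 against 0.74, 1.09 and 0.42 by 1416828_at. The groups were fully apart, and wild type 3 lay far below the other wild types. The difference was 1.87 (3.66-fold, SE 0.36) with an adjusted p = 0.0622, so it missed the threshold. The call depended on the settings: it passed after repeated quantile normalisation (1.66, adjusted p = 0.0153), with array weights (1.59, adjusted p = 0.0261), with 1 probe set per gene (adjusted p = 0.0439) and without wild type 2 (2.22, adjusted p = 0.0399). A second Snap25 probe set differed by 0.11 (SE 0.15). Stx1a, the syntaxin of the release site, read -0.70, -0.10 and -0.91 against 0.10, 0.65 and 0.22 by 1437390_x_at, a difference of 0.89 (SE 0.24, adjusted p = 0.160). Probe sets with that suffix may bind related transcripts, and the other Stx1a probe set differed by -0.13 (SE 0.16). Synaptobrevins, the SNAREs on the vesicle, showed no comparable shift: the Vamp2 probe sets differed by 0.19 (SE 0.17) and -0.14 (SE 0.18), and those of Vamp1 by -0.15 (SE 0.17) and -0.01 (SE 0.23). Napb, which helps take used SNARE complexes apart, ranged from -0.02 to 0.75 over 6 probe sets, with overlap between the groups in each. In all, 9 of the 14 probe sets of this class were above 0, with a median of 0.14, and 3 had an unadjusted p under 0.05.

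Among complexins and the priming factor the groups overlapped in all but 1 probe set. None of their 7 probe sets passed, 1 had an unadjusted p under 0.05, and their median was 0.37. Cplx2 had its 3 probe sets above 0, led by 1421477_at with -0.55, 0.02 and -1.61 in wild types and 0.48, 0.28 and -0.02 in mutants. Mutant 3 lay below wild type 2 there, and the difference of 0.96 (SE 0.36, adjusted p = 0.333) was 0.51 without wild type 3. Unc13a, the priming factor, differed by 0.53 (SE 0.28, adjusted p = 0.524), and the mutant mean rested on mutant 2 at 0.97 beside -0.02 and 0.02. Cplx1 differed by 0.37 (SE 0.17, adjusted p = 0.432) with the groups just apart, while its other probe sets read -0.15 and -0.08.

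Among the proteins that sit in the vesicle membrane, Sv2b, a transporter-like glycoprotein, had both probe sets above 0 with separate groups. The one with the smaller p read -0.12, -0.07 and -0.30 against 0.48, 0.07 and 0.53, a difference of 0.53 (SE 0.17, adjusted p = 0.266), and the other differed by 0.50 (SE 0.18). Syp, synaptophysin, read -0.06, -0.28 and -0.23 against 0.45, 1.15 and 0.06 by one probe set (0.74, SE 0.26, adjusted p = 0.288) and differed by -0.24 (SE 0.17) by the other. Sv2a, the widespread form of the glycoprotein, differed by 0.29 (SE 0.19). None of these 5 probe sets passed, and 3 had an unadjusted p under 0.05.

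Synapsins and Rab3 proteins, which tether vesicles and steer them to the membrane, gave 1 fall and 1 rise. Syn2 fell: its probe set 1428460_at read 0.65, 0.32 and 0.44 in wild types against -0.65, -0.32 and -0.57 in mutants, a difference of -0.98 (1.98-fold lower, SE 0.16, adjusted p = 0.0470). All 6 Syn2 probe sets were below 0, from -1.05 to -0.24, and in 5 of them every mutant lay under every wild type. Next to the one that passed were 1435511_at at -0.83 (SE 0.17, adjusted p = 0.0723) and 1460230_at at -1.05 (SE 0.24, adjusted p = 0.101). Syn1, the other synapsin among the members, differed by 0.25 (SE 0.18, adjusted p = 0.665) with overlapping groups. Rab3c, a vesicle GTPase of neurons, rose by 1.08 (2.12-fold, SE 0.18, adjusted p = 0.0469) with -0.68, -0.30 and -0.67 against 0.68, 0.62 and 0.30 by 1435047_at. Its wild types and mutants were clearly apart there, but the other 4 Rab3c probe sets lay between 0.01 and 0.16 with overlap. Rab3a, the main synaptic form, read 0.17, 0.04 and 0.33 against -0.17, -0.04 and -0.38, a difference of -0.38 (SE 0.16, adjusted p = 0.415), and -0.01 (SE 0.16) by its second probe set.

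**Figure D2:**
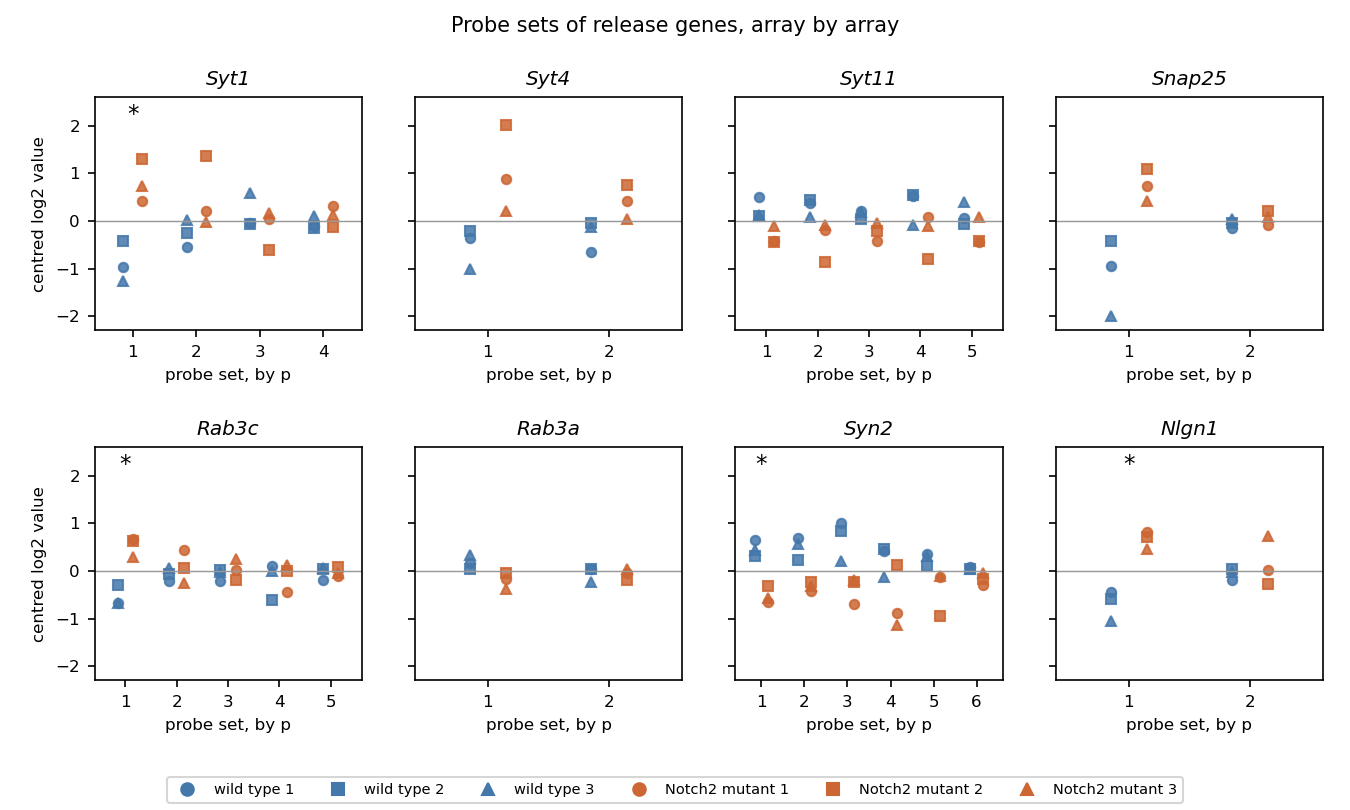
Centred log2 value (y axis) of every probe set of 8 genes on the 6 arrays, probe sets ordered within a gene by p (x axis), with an asterisk over those that passed. Every Syn2 and Syt11 probe set has its mean lower in mutants, from -1.05 to -0.24 and from -0.68 to -0.37, whereas in Syt1, Rab3c, Nlgn1 and Snap25 a single probe set carries the separation.

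At the active zone, where vesicles dock, 3 probe sets of the Rim genes had all mutants above all wild types. Rims2, a Rim protein that binds Rab3 and calcium channels, read -0.50, -0.16 and -0.36 against 0.16, 0.72 and 0.55 by 1422809_at, with a difference of 0.81 (SE 0.19, adjusted p = 0.107). A second Rims2 probe set, 1450761_s_at, differed by 1.10 (SE 0.30, adjusted p = 0.177) with the groups just apart, and passed without wild type 2 (1.47, adjusted p = 0.0416). The remaining 3 ranged from -0.17 to 0.33. Rims1 differed by 0.54 (SE 0.17, adjusted p = 0.253) with separate groups and by 0.21 with overlap. Bsn and Pclo, which encode the giant scaffolds bassoon and piccolo, stayed between -0.05 and 0.24 over 6 probe sets with overlap in all. None of the 13 probe sets of this class passed, 3 had an unadjusted p under 0.05, and 9 were above 0.

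The genes that give a neuron its transmitter did not separate the groups. Of 11 probe sets for glutamate loading (Slc17a6, Slc17a7), GABA and glycine loading (Slc32a1) and GABA synthesis (Gad1, Gad2), none passed, none was free of overlap and none had an unadjusted p under 0.05. Their median was -0.04. The largest difference, of Slc17a6, the vesicular glutamate transporter that retinal ganglion cells use, was 0.82 (SE 0.38, adjusted p = 0.458), with -0.16, 0.05 and -0.73 against 0.20, 1.48 and -0.05. It rested on mutant 2, and without that array it was 0.35. Slc17a7, the other glutamate transporter, differed by -0.12 (SE 0.16). The Slc32a1 probe sets ranged from -0.22 to 0.09, those of Gad1 were at -0.43 (SE 0.25) and -0.07 (SE 0.25), and those of Gad2 at 0.23 (SE 0.16) and 0.21 (SE 0.21).

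Adhesion across the synapse was represented by a receptor and a partner on the other side. Nlgn1, a neuroligin, usually placed on the receiving side, had the smallest p of all members. It read -0.45, -0.58 and -1.06 in wild types and 0.82, 0.71 and 0.45 in mutants by 1437160_at, and rose by 1.36 (2.56-fold, SE 0.20, adjusted p = 0.0385). The gap between the groups was wider than the spread within either one. Its other probe set differed by 0.21 (SE 0.25) with overlap. Nrxn3, a neurexin on the releasing side, ranged from -0.18 to 0.37 over 5 probe sets, none with separate groups.

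In membrane retrieval, Sh3gl2 alone moved past the threshold. Sh3gl2 encodes endophilin A1, which bends the membrane and recruits dynamin. Probe set 1418791_at read -0.50, -0.60 and -0.33 against 0.51, 0.33 and 0.47, a rise of 0.91 (1.88-fold, SE 0.15, adjusted p = 0.0469), and each group was tight. Its other probe sets differed by 0.25 (SE 0.22) and -0.01 (SE 0.16). Dnm1, neuronal dynamin, differed by 0.29 (SE 0.23) and 0.12 (SE 0.15). The clathrin partners lay on the other side of 0, with Amph at -0.30 (SE 0.18, adjusted p = 0.603) and Snap91 at -0.31 (SE 0.18, adjusted p = 0.580) and -0.19 (SE 0.18). All 3 overlapped between the groups.

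Probe sets of 1 gene often disagreed. Of the 28 genes with several, 9 had all of them above 0, 6 had all below 0 and 13 had both signs. The 5 genes with a call had 20 probe sets between them, and the 15 others did not pass. Syn2 and Syt11 were the members with 5 or more probe sets that all lay below 0, and Rab3c was the only one with 5 or more that all lay above it.

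**Figure D3:**
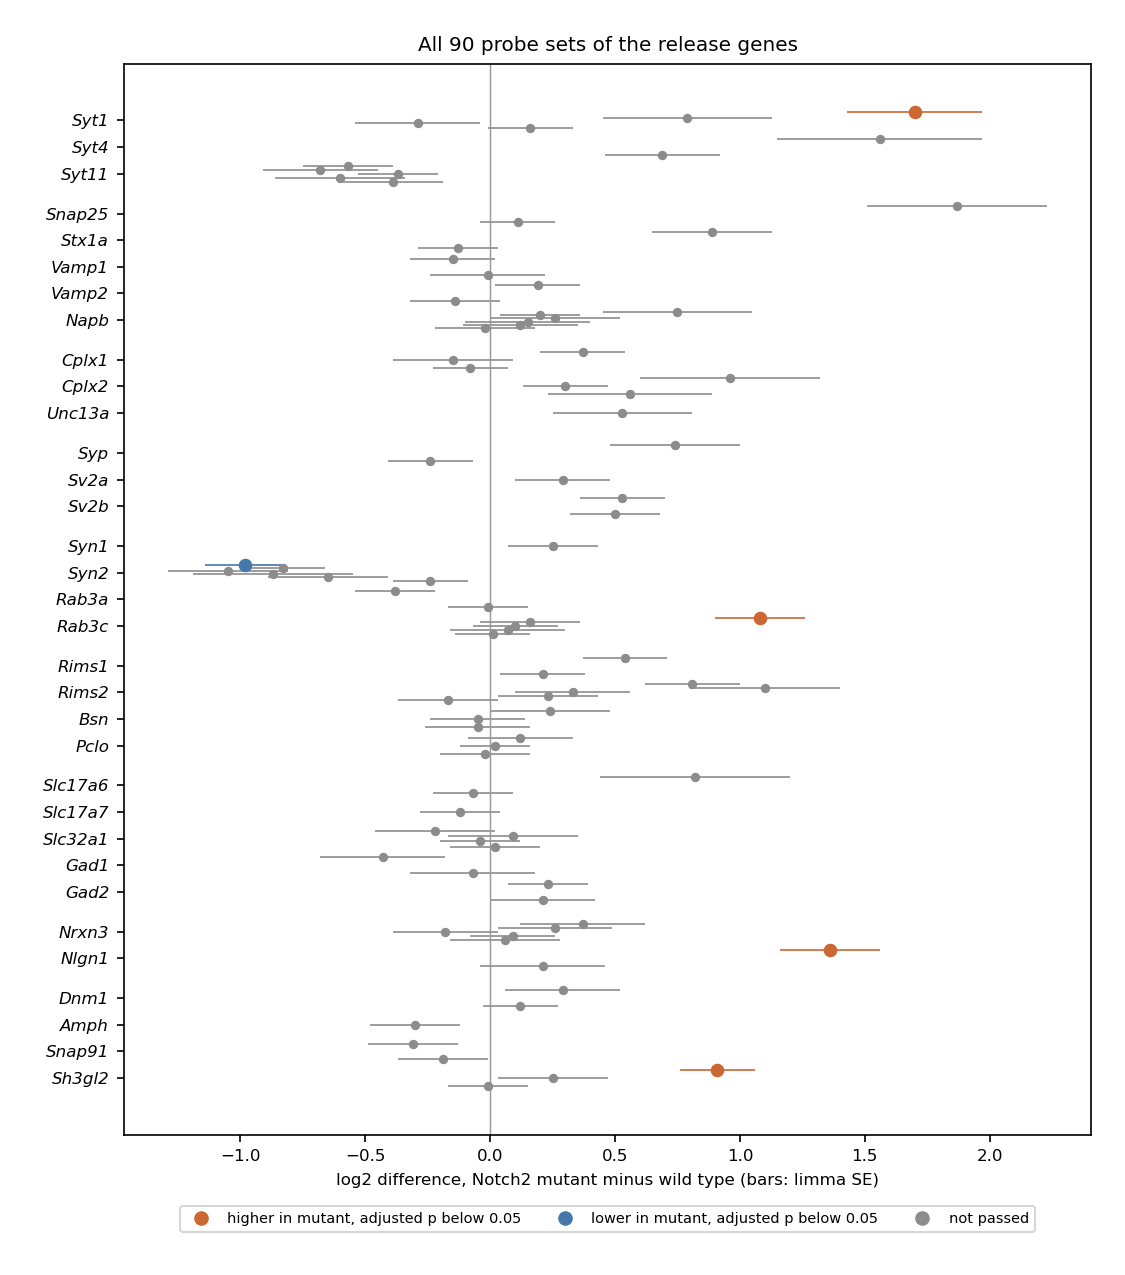
Log2 difference, mutant minus wild type (x axis), with limma's standard error for each of the 90 probe sets, by gene (y axis), those that passed coloured by direction. The 4 rises and the fall of Syn2 stand beside grey probe sets of the same genes, many of them near 0.

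Short upstream sequences are shown for the 5 genes with a call and for Syn1, since these members were set apart by the array values and Syn1 by its motif matches. RefSeq (GRCm38.p6) gave promoter windows, from 250 bases before to 50 after a start site, for 29 of the 33 genes (39 windows). Rims2, Snap25, Syt4 and Vamp2 had no entry. Both strands were searched for the left arm of the REST element, TTCAGCAC, its right arm, GGACAGCG, and the cyclic AMP element, TGACGTCA, none of which overlap. REST is a repressor of neuronal genes in other cells. The left arm was in 3 of the 39 windows (Nlgn1, Syn1 and Unc13a) and in 1.17% of all 32851 windows, the right arm in 2 (Gad2 and Unc13a) and in 1.26%, and the cyclic AMP element in 2 (Sh3gl2 and Syn1) and in 1.79%. A left arm followed within 4 bases by GGACAG was in none of the 39 and in 0.0274% of all, a search added after the first counts were seen. A match describes letters only. The first 3 sequences are the 250 bases before the start site, the others the last 100, all 5′ to 3′ on the gene's strand with matches in capitals:
Nlgn1, the start site with the match (chr3:26153987-26154236, minus strand): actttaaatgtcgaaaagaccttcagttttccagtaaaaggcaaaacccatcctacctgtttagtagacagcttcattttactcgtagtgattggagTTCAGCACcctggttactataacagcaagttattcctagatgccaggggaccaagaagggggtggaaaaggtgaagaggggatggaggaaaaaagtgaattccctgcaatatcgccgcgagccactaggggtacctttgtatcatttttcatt
Sh3gl2 (chr4:85205206-85205455, plus strand): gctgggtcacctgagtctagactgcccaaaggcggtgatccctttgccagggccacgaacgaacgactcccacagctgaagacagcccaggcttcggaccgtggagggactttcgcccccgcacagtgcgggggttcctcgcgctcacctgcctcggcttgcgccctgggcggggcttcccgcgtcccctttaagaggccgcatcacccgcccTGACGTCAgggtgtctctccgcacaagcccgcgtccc
Syn1 (chrX:20920919-20921168, minus strand): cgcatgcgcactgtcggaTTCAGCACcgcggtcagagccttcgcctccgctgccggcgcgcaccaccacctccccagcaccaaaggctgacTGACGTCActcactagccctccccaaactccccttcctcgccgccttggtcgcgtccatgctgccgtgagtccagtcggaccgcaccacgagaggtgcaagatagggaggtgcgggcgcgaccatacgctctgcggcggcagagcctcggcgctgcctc
Syt1 (chr10:109010976-109011075, minus strand): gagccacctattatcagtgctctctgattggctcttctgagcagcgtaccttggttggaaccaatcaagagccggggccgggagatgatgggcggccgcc
Rab3c (chr13:110280207-110280306, minus strand): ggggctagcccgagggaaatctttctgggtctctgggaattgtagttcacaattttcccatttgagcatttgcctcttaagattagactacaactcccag
Syn2 (chr6:115134802-115134901, plus strand): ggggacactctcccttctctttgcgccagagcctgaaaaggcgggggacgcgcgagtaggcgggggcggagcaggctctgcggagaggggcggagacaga

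Of the 6 sequences, those of Nlgn1 and Sh3gl2, which rose, and of Syn1, which did not pass, hold a match. The stretches shown for Syt1, Rab3c and Syn2 hold none. Gad2 and Unc13a, whose windows also hold matches, did not pass either and are not shown. The 300-base windows of the members held between 0 and 38 CG pairs with a median of 14, against a median of 7 over all windows.

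Other genes of the synapse were listed from general knowledge, with earlier results of these data known. Of 71 further presynaptic genes 65 were measured, by 153 probe sets with a median difference of 0.02, and 2 rose (1.31%, against 0.469% of all probe sets) and 0 fell. An unadjusted p under 0.05 was seen in 25 of them (16.3%, against 11.6% of all). The groups were separate in 17.6% of them, near the 17.8% of all probe sets, with mutants higher in 18 and lower in 9. The rises were Cadps, which primes dense-core granules (-0.89, -0.44 and -1.03 against 1.02, 1.47 and 0.44, a rise of 1.76, SE 0.27, adjusted p = 0.0413), and Cacna1b, the pore of the N-type calcium channel (-0.47, -0.34 and -0.54 against 0.62, 0.85 and 0.34, a rise of 1.05, SE 0.17, adjusted p = 0.0460). In both, all mutants lay above all wild types. Of the other Cacna1b probe sets, 1 had all mutants higher (0.62, SE 0.14, adjusted p = 0.107), 1 all lower (-0.46, SE 0.21, adjusted p = 0.447) and 1 overlapped (-0.05). The smallest p among those that did not pass belonged to Apba2, an adaptor that binds the syntaxin partner Munc18, at 1.20 (SE 0.21, adjusted p = 0.0526), and to Unc13c, a priming factor related to Unc13a, at -0.95 (SE 0.17, adjusted p = 0.0553). For 31 relatives that most cells use for ordinary membrane traffic, such as Vamp3, Snap23 and Dnm2, 29 genes were measured by 77 probe sets, with a median of -0.04 and no call (7 at an unadjusted p under 0.05, or 9.09%). Stx3, a syntaxin of ribbon synapses and of many epithelia, gave the highest value at 0.67 (SE 0.21, adjusted p = 0.227). The postsynaptic list, with 22 of 30 genes measured by 63 probe sets, had a median of 0.02 and no call (13 at an unadjusted p under 0.05, or 20.6%). Its smallest p belonged to Camk2a, a calcium-dependent kinase, at -0.85 (SE 0.16, adjusted p = 0.0606). Differences of at least 0.5 in size were seen in 13 of the 63 (20.6%, against 9.05% of all probe sets), 9 positive and 4 negative.

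Markers of retinal neurons and their progenitors moved much more than the release genes. Of 35 probe sets for 19 such genes, 10 rose and 0 fell (28.6%, against 0.469% of all probe sets). All mutants lay above all wild types in 29 (82.9%, against 8.73%), and the median difference was 1.48, against -0.02. Levels are unknown, but the list's median centred log2 value was -0.86, -0.37 and -1.10 on wild type arrays against 0.73, 1.04 and 0.38 on mutant arrays. Photoreceptor markers (15 probe sets) had a median of -0.03 with 0 calls by limma and 2 at an unadjusted p under 0.05 (13.3%, against 11.6% of all). Neuroendocrine cargo genes (6 probe sets) had a median of 0.83 with 1 rise (16.7%, against 0.469% called of all). It was of the granule protein gene Chgb (1.23, SE 0.21, adjusted p = 0.0485). Mutant 2 was the highest array in 21 of the 29 retinal probe sets that were higher in all mutants, and in 10 of the 15 such members (66.7%), against 44.9% over all probe sets of this kind. Wild type 3 was lowest in 19 of the 29 and 9 of the 15 (60%, against 55%). Among the 15, the most variable probe sets of Snap25, Syt1, Syt4, Stx1a, Rims1 and Rims2 had both of these extremes. In those of Rab3c, Nlgn1 and Sh3gl2 mutant 1 was highest, though wild type 3 was lowest in Nlgn1. In whole lenses a change in the number of cells of a type and a change in RNA per cell cannot be told apart. The part of neuronal cells in the members' values was not tested.

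**Figure D4:**
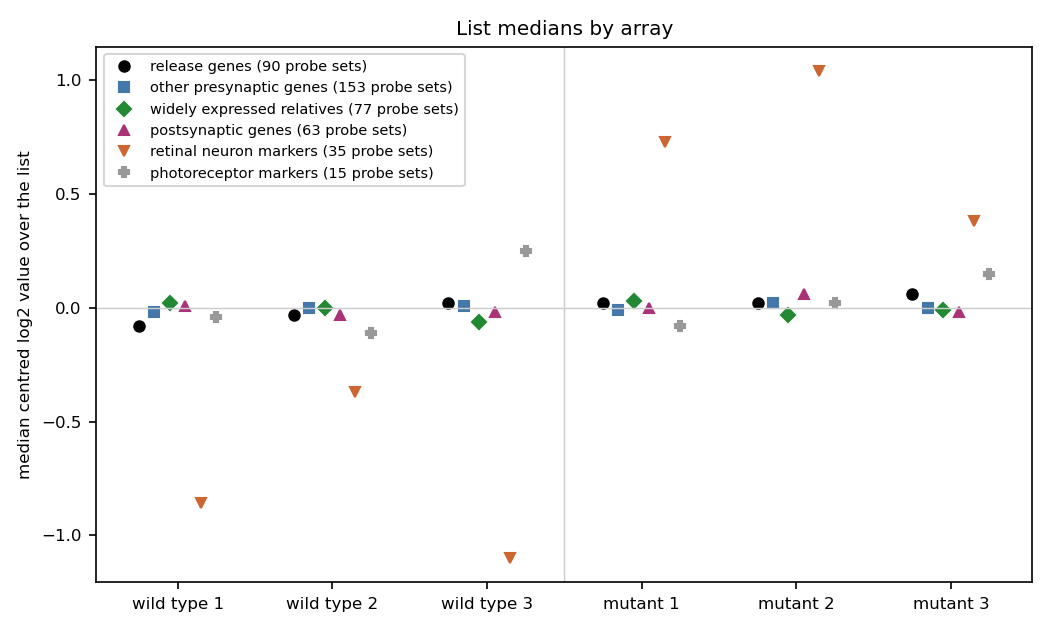
Median centred log2 value (y axis) of 6 gene lists on each array (x axis), with the number of probe sets in the key. Retinal neuron markers lie between -1.10 and -0.37 in wild types and between 0.38 and 1.04 in mutants, while the medians of the release genes stay between -0.08 and 0.06.

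Marker lists of the lens and of other cells ran beside these values. Lens fibre markers (15 probe sets) had a median of -0.24 with 1 fall (6.67%, against 0.469% called of all probe sets). Lens epithelial markers (26 probe sets) had a median of -0.55 with 2 falls (7.69%). An unadjusted p under 0.05 was seen in 5 of the fibre (33.3%) and 17 of the epithelial probe sets (65.4%), against 11.6% of all. The groups did not overlap in 46.7% of the fibre and 57.7% of the epithelial probe sets, against 17.8% of all. Macrophage markers (16 probe sets, 15 above 0) had a median of 0.94 and 0 calls (10 at an unadjusted p under 0.05, or 62.5%). Their list medians were -0.84, -0.05 and -1.20 on wild type arrays and 0.05, 0.26 and 0.62 on mutant arrays. Their part in the result was not tested. Glial markers (23 probe sets) had a median of 0.10 with 1 rise (4.35%), of the glutamate transporter gene Slc1a3 (1.36, SE 0.22, adjusted p = 0.0428). In that list 9 had an unadjusted p under 0.05 (39.1%), and the largest difference, of Fabp7, was 1.87 (SE 0.47, adjusted p = 0.135). Endothelial markers (8 probe sets) had a median of -0.02 with 0 calls at either threshold. The array maker's hybridization controls, 18 probe sets for RNA added to each sample, split the arrays: each was below 0 in wild type 1, wild type 2 and mutant 1 and above 0 in wild type 3, mutant 2 and mutant 3. Within the low and the high side of that split, the difference was 1.12 and 2.28 for Syt1, 1.17 and 1.13 for Rab3c, 1.34 and 1.64 for Nlgn1, 1.06 and 0.72 for Sh3gl2 and -1.14 and -0.88 for Syn2. The signs follow from groups that do not overlap, and each side holds a single array of 1 group, so these are values with no test. With the split as a block, a fit added after the data were seen, all 5 passed, as did Snap25 (2.09, SE 0.33, adjusted p = 0.0328).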

How the data were processed

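RNA of 6 lens samples was measured on 1 Affymetrix array each. The authors deposited 1 table of log2 values made with RMA, per the submitters' processing notes. The log base is unstated and was read as log2, as RMA returns. Every probe set has a median of 0 over the arrays. Nothing was renormalised. After 64 control probe sets were left out, 45037 were fitted with limma 3.58.1 (lmFit and eBayes, R 4.3.3), mutant against wild type, with Benjamini-Hochberg adjustment and no filter on dim probe sets. The script was tested on simulated data. The number of arrays limits the precision. The p-values measure the spread between these arrays, in which embryo and array processing cannot be told apart.

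The platform annotation gave 34945 probe sets 1 gene symbol, 932 several and 9160 none. Array values were to be printed for members that passed and, in a class of role with none, for the smallest p. Those of Syt4, Syt11, Stx1a, Unc13a, Syp and Rab3a were added after their values were seen. From each other list the rule allowed those that passed and otherwise up to 3 of the smallest p. Members, lists and roles were chosen with earlier results of these data known. Alternatives were repeated quantile normalisation, array medians, array weights, robust variances, 1 probe set per gene (by standard deviation), no ambiguous probe sets, a replicate block and each array left out.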

Additional observations from a re-analysis of the deposited data

How the results depend on the processing

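Syt1, Rab3c, Nlgn1 and Sh3gl2 passed under all 8 alternatives that kept the 6 arrays, as Syn2 did except where named here. Leaving out 1 array in turn gave 0 to 3 members that passed, in 0 to 3 genes, where 7 to 155 of all probe sets passed. The groups did not overlap in 29 to 38 members (fewer arrays separate more easily). That share was not counted over all probe sets with an array left out, so these counts have no background. The median member difference was then 0.0438 to 0.167. That median was 0.147 after repeated quantile normalisation, 0.168 with array weights and 0.289 with 1 probe set per gene, where 12 had no overlap. Array weights gave 9 probe sets that passed, and all probe sets 889 instead of 211, against 584 after quantile normalisation and 790 with the hybridization split as a block. The cause was not tested. With 1 probe set per gene the called Syn2 probe set was not used. Same-numbered arrays did not all pair. After each group's mean was subtracted per probe set, their correlations were 0.33, -0.14 and 0.26, and wild type 2 correlated most with mutant 1 (0.3). Values so centred sum to 0 within a group, so the correlations of 1 array with the other group must differ in sign. With the replicate number as a block 530 probe sets passed by limma, 6 of them members. Syt4 (adjusted p = 0.0274) and Snap25 (0.0126) were then in and Syn2 (0.0516) out. Of the 90 members, 12 were followed singly under these alternatives, and none of the 12 changed sign. In all of them but Cplx2 1421477_at and Slc17a6 1428379_at the groups did not overlap, so leaving out an array could not change their sign. Within the sides of the hybridization split, members with overlapping groups did change sign, as Syt1 1431191_a_at did (0.09 and -0.79). With 3 arrays a group and centred values, levels and small differences are out of reach.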
